A study of Mus musculus with 16 samples.

Results

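The NMDA receptor subunit genes of the mouse are Grin1, Grin2a, Grin2b, Grin2c, Grin2d, Grin3a and Grin3b. They were taken by symbol as a complete gene family, 7 of the 54532 genes in the tables, and all 7 passed the filter on low counts that left 26257 genes for testing. Their transcripts were measured by RNA-seq in parvalbumin (PV) interneurons, the fast-spiking inhibitory neurons of the cortex. Both groups of mice carried PV-Cre, which acts in PV cells, and a transgene silenced by a loxP-flanked stop (lsl). In the control group, PV-Cre;lsl-eGFP (9 libraries), Cre switched on eGFP. In the other group, PV-Cre;lsl-eGFP-GluA2 (7 libraries), it switched on eGFP fused to GluA2, the AMPA receptor subunit encoded by Gria2, and the labels give as the aim a test of taking calcium-permeable AMPA receptors away. The mice were adults of 113.1 ± 11.6 days over the whole study, with no age or sex per library. Cortical tissue was digested and fixed in paraformaldehyde before nucleated green cells were sorted, mouse by mouse. Each library is labelled as a biological replicate.

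NMDA receptors are glutamate-gated cation channels built of 4 subunits. The obligatory GluN1 subunit, encoded by Grin1, binds glycine or D-serine and pairs with GluN2 subunits, which bind glutamate, or with GluN3 subunits, which bind glycine. The channel is blocked by magnesium at rest and passes calcium when glutamate and depolarization coincide. The GluN2 subunit sets the speed and the magnesium block: receptors with GluN2A close quickly, those with GluN2B more slowly, and those with GluN2C or GluN2D are weakly blocked by magnesium. In the mature forebrain GluN2A and GluN2B predominate, GluN2D is known from inhibitory interneurons, and GluN2C is best known from cerebellar granule cells.

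The libraries held 7454165 to 15462544 counts each. They differed in the reads that fell in 1448 autosomal genes of olfactory and vomeronasal receptors, whose known site is the nose, and which are used here as a measure of background. This background ran from 82.4 to 4142 CPM (counts scaled to a fixed library total). It was over 1500 CPM in 6 libraries (replicates 1 to 4 of eGFP, 1 and 3 of eGFP-GluA2), between 500 and 1500 CPM in 5 (5 and 6 of eGFP, 2, 4 and 5 of eGFP-GluA2) and under 500 CPM in 5 (7 to 9 of eGFP, 6 and 7 of eGFP-GluA2). The 11 PV interneuron markers, led by Gad1 and Erbb4, summed to 4569 to 12766 CPM in eGFP and 4960 to 12334 CPM in eGFP-GluA2 libraries, and none of them was at 0 in any library. The 11 excitatory neuron markers, led by Cux2 and Slc17a7, summed to 204 to 342 CPM in eGFP and 248 to 351 CPM in eGFP-GluA2 libraries. Markers of Sst interneurons summed to at most 168 CPM, of Vip, Lamp5 and Cck interneurons to at most 390, of astrocytes to at most 351, of oligodendrocytes to at most 177 and of the other 3 cell types to at most 59.0. Gria2, which checks the labels, averaged 587 ± 111 CPM (SD, n = 9) with eGFP against 963 ± 215 CPM (SD, n = 7) with eGFP-GluA2. Transgene and endogenous reads cannot be told apart in it.

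The subunit genes lie on 7 chromosomes of GRCm38. Grin1 (ENSMUSG00000026959) spans chromosome 2, 25291181 to 25319187, on the minus strand. Grin2a (ENSMUSG00000059003) spans chromosome 16, 9567898 to 9995560, and Grin2b (ENSMUSG00000030209) chromosome 6, 135713233 to 136173511, both minus. Grin2c (ENSMUSG00000020734) lies on chromosome 11, 115249169 to 115267243, and Grin2d (ENSMUSG00000002771) on chromosome 7, 45831883 to 45878378, both minus. Grin3a (ENSMUSG00000039579) lies on chromosome 4, 49661611 to 49845744, minus, and Grin3b (ENSMUSG00000035745) on chromosome 10, 79970715 to 79977190, plus. The annotated exons of each gene cover between 3296 bases (Grin3b) and 24842 bases (Grin2b). No source used here states whether counting used strand, and reads in exons shared with a gene on the opposite strand cannot be assigned. Such sharing touched 32.1% of the exon bases of Grin3b (with Tmem259, which had 15278 counts over all libraries), 13.5% of Grin1 (with Grin1os, 2528 counts) and 9.66% of Grin2d (with Gm45441, 164 counts).

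The upstream sequences of the most and the least abundant subunit gene are shown because their levels form the ends of the order below. They cover 240 bases, from 250 to 11 bases before the gene's start in RefSeq for GRCm38.p6, which can differ from the start given above, as it does for Grin3b, and are printed 5′ to 3′ along the gene's own strand. The promoter table matched 4 of the 7 members. Capitals mark the CG dinucleotides, the sites of DNA methylation, which cluster in the CpG islands of many promoters. Grin1 is at chr2:25319198-25319437 on the minus strand and Grin3b at chr10:79970474-79970713 on the plus strand.
Grin1: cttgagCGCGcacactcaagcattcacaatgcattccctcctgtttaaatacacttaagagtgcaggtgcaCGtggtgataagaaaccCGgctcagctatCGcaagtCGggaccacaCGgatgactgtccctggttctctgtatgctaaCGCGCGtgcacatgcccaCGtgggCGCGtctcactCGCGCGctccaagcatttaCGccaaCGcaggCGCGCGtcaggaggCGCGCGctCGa
Grin3b: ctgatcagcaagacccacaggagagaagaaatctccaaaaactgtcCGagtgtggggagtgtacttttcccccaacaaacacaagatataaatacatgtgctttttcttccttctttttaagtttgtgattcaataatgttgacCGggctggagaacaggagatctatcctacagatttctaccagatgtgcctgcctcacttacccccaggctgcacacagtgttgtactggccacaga
The Grin1 window held 25 CG, and 9.49% of the 32851 promoter windows held as many or more. The Grin3b window held 2, and 80.2% of windows held as many or more, against a median of 5 over all windows. Grin2c, one of the low transcripts, held 15 CG (25.7% of windows as many or more).

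Levels are given as TPM (transcripts scaled to a fixed total), which the authors scaled for transcript length, so that genes of different length can be compared. Grin1, for the obligatory GluN1 subunit, was the most abundant of the 7 in 16 of 16 libraries. Its lowest, median and highest TPM were 61.6, 82.8 and 107 in eGFP libraries, with a mean of 84.2 ± 12.8 (SD, n = 9). They were 78.0, 80.1 and 151 in eGFP-GluA2 libraries, with a mean of 99.0 ± 30.5 (SD, n = 7). eGFP-GluA2 replicates 6 and 7 stood above all other libraries, at 151 and 135 TPM, and the other 5 eGFP-GluA2 libraries lay within the eGFP range. Both of these high libraries belong to the lowest background.

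The next most abundant transcripts were Grin2a, for GluN2A, and Grin2b, for GluN2B. Grin2a had a lowest, median and highest TPM of 48.8, 63.1 and 72.7 in eGFP and 51.2, 63.2 and 115 in eGFP-GluA2 libraries, with means of 61.3 ± 7.17 (SD, n = 9) and 73.2 ± 21.9 (SD, n = 7). Grin2b had 38.8, 58.6 and 70.8 TPM in eGFP and 48.7, 51.3 and 92.4 in eGFP-GluA2 libraries, with means of 56.1 ± 9.70 (SD, n = 9) and 60.3 ± 17.5 (SD, n = 7). For both genes the groups overlapped and eGFP-GluA2 replicates 6 and 7 were the highest libraries, as for Grin1.

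Grin2d, for the GluN2D subunit that interneurons carry, was the third GluN2 transcript at a level well below Grin2b. It had a lowest, median and highest TPM of 6.48, 10.3 and 11.8 in eGFP and 7.37, 9.23 and 18.2 in eGFP-GluA2 libraries, with means of 9.48 ± 1.89 (SD, n = 9) and 11.1 ± 3.87 (SD, n = 7). Grin2c, for GluN2C, had 0.435, 0.590 and 1.13 TPM in eGFP and 0.400, 0.780 and 1.16 in eGFP-GluA2 libraries, with means of 0.700 ± 0.258 (SD, n = 9) and 0.842 ± 0.269 (SD, n = 7). Groups overlapped for both genes.

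The GluN3 genes, whose products bind glycine instead of glutamate, were low. Grin3a had a lowest, median and highest TPM of 0.946, 1.44 and 3.19 in eGFP and 1.46, 1.74 and 2.69 in eGFP-GluA2 libraries, with means of 1.89 ± 0.801 (SD, n = 9) and 1.95 ± 0.480 (SD, n = 7). Grin3b had 0, 0.253 and 1.00 TPM in eGFP and 0.0926, 0.186 and 0.504 in eGFP-GluA2 libraries, with means of 0.371 ± 0.341 (SD, n = 9) and 0.266 ± 0.163 (SD, n = 7). Grin3b rested on 0 to 58 counts per library. It had 0 counts in eGFP replicate 8, where 0 of 13246914 counts allows up to 0.226 CPM (3 counts), counting error only.

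**Figure D1:**
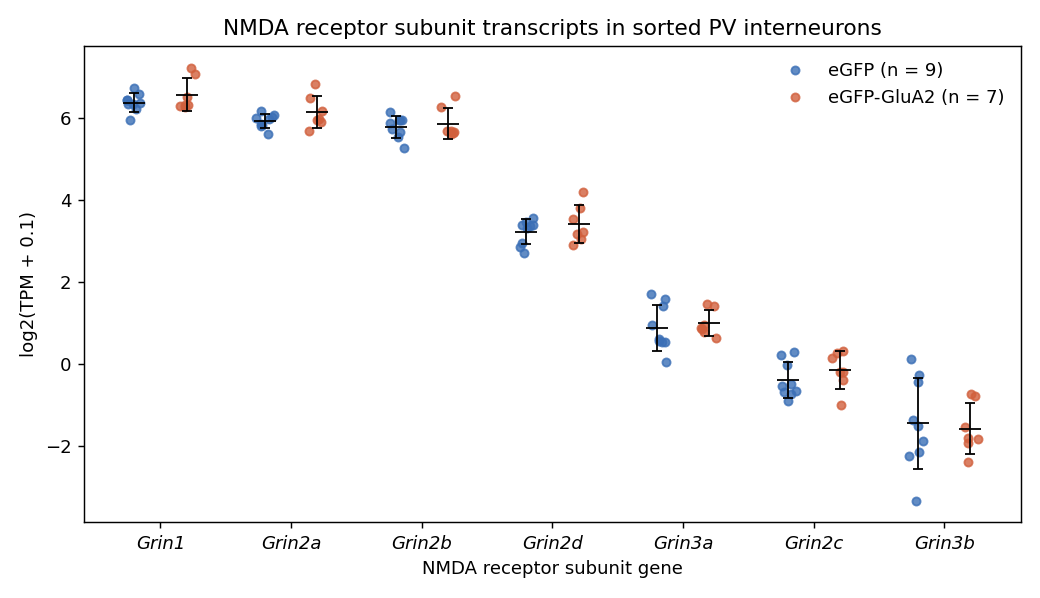
Level of each NMDA receptor subunit gene as log2(TPM + 0.1), with 1 point per library, eGFP (n = 9) in blue and eGFP-GluA2 (n = 7) in orange, and bars for the mean and SD. Grin1, Grin2a and Grin2b form the upper level, Grin2d lies below them, and Grin3a, Grin2c and Grin3b lie lowest, with the groups overlapping for every gene.

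Ordered by mean TPM, the genes ran Grin1, Grin2a, Grin2b, Grin2d, Grin3a, Grin2c and Grin3b. Each gene exceeded the next in 16 of 16 libraries, except that Grin2a exceeded Grin2b in 13 of 16 (7 of 9 eGFP and 6 of 7 eGFP-GluA2). The largest steps were from Grin2b to Grin2d, with a median ratio of 5.68, and from Grin2d to Grin3a, with 5.21. The smallest was from Grin2a to Grin2b, with 1.2, followed by that from Grin1 to Grin2a, with 1.33. By deposited counts, which grow with transcript length, the order began Grin2b, Grin2a, Grin1, each above the next in 16 of 16 libraries. The order of these 3 genes thus depends on the values used. The step between counts and TPM did not follow annotated exon length throughout. The median ratio of CPM to TPM was 13.4 for Grin2c, with 5037 exon bases, against 4.47 for Grin1, with 9700.

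The background bears on the low members. In each library the TPM of a subunit gene was set beside those of the 1448 receptor genes. Grin1, Grin2a and Grin2b exceeded the 95th percentile of the receptor genes in 16 of 16 libraries and Grin2d in 14 of 16. Grin2c, Grin3a and Grin3b exceeded it in 0 of 16. Grin2c and Grin3a were above the receptor median in 16 of 16 libraries, while Grin3b was above it in 6 of 16. In high background libraries Grin3b exceeded 19.5 to 56.0% of the receptor genes, Grin2c 56.4 to 71.5% and Grin3a 84.9 to 88.7%. In low background libraries, where the receptor median was at most 0.0169 TPM, Grin3b exceeded 0 to 79.7% of them, Grin2c 85.2 to 88.8% and Grin3a 90.2 to 92.2%.

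As shares of the summed TPM of the 7 genes over all libraries, Grin1 made up 39.6% ± 1.52 (SD, n = 16), Grin2a 29.2% ± 1.88 and Grin2b 25.4% ± 2.34. Grin2d made up 4.43% ± 0.513 and Grin3a 0.883% ± 0.370, and Grin2c and Grin3b were lower. The share of Grin1 stayed between 37.1 and 42.3% while its TPM ranged from 61.6 to 151. Grin1 stood at 0.659 ± 0.0429 (SD, n = 9) of the summed GluN2 transcripts with eGFP against 0.679 ± 0.0391 (SD, n = 7) with eGFP-GluA2, and the ranges overlapped. Among GluN2 transcripts Grin2a made up 48.2% ± 3.62 in eGFP and 50.3% ± 2.12 in eGFP-GluA2 libraries. Grin2b made up 43.8% ± 3.88 and 41.6% ± 2.69, and Grin2d 7.40% ± 1.01 and 7.53% ± 0.659.

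The balance of GluN2A to GluN2B is the usual measure of NMDA receptor composition. The log2 ratio of Grin2a to Grin2b TPM had a lowest, median and highest value of -0.32, 0.23 and 0.41 in eGFP libraries and of -0.00, 0.29 and 0.50 in eGFP-GluA2 libraries. The groups overlapped, with eGFP replicate 8 the lowest. The means were 0.14 ± 0.23 (SD, n = 9) and 0.28 ± 0.15 (SD, n = 7), a difference of 0.14 with a two-sided exact permutation p of 0.209 (11440 assignments, smallest possible p 8.74e-05). Within background classes the exact permutation p was also 0.209. From the deposited counts the ratios were -0.69 ± 0.11 and -0.65 ± 0.16 and differed by 0.04 (exact permutation p = 0.552). No shift between Grin2a and Grin2b transcripts was detectable between the groups.

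**Figure D2:**
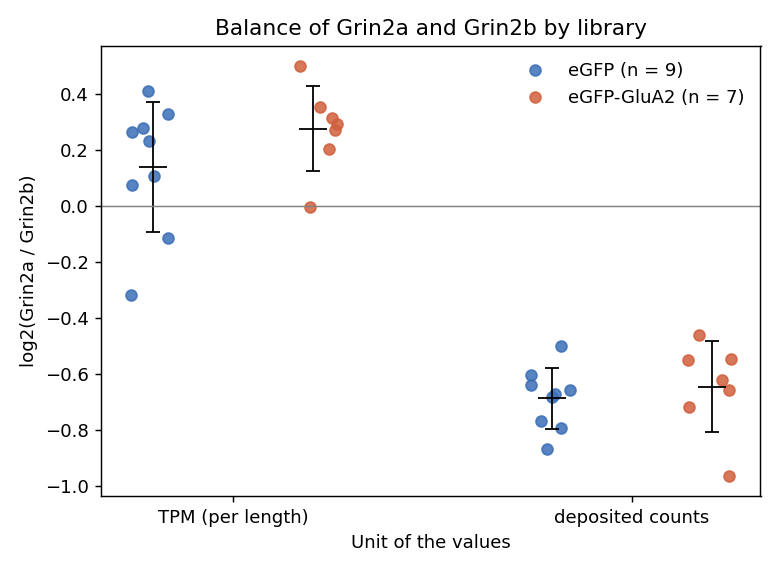
log2 ratio of Grin2a to Grin2b in each library, from TPM (left) and from deposited counts (right), with bars for the mean and SD of 9 eGFP and 7 eGFP-GluA2 libraries. The groups overlap in both units, and counts put the ratio below 0 in every library.

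The comparison of eGFP-GluA2 with eGFP asked whether any subunit transcript differed when PV cells expressed the GluA2 fusion. None of the 7 subunit genes did in edgeR's quasi-likelihood test with Benjamini-Hochberg adjustment over all 26257 genes, where 0.00381% of genes (1) were called. At an unadjusted p under 0.05, 0 of 7 members and 1.12% of all genes passed, and DESeq2 likewise called 0 members against 0.0174% of genes. In bulk samples, fewer cells of a type and less RNA per cell cannot be told apart. The p-values measure the spread between these libraries.

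In CPM scaled by TMM, edgeR's normalization, Grin1 averaged 391 ± 99.4 (SD, n = 9) with eGFP against 425 ± 97.4 (SD, n = 7) with eGFP-GluA2, a log2 fold change of 0.12 ± 0.19 (SE; 95% interval -0.28 to 0.52). Grin2a averaged 700 ± 228 and 731 ± 194, a log2 fold change of 0.06 ± 0.24 (-0.44 to 0.56). Grin2b averaged 1116 ± 326 and 1153 ± 342, a log2 fold change of 0.05 ± 0.23 (-0.44 to 0.54). For these 3 genes both bounds of the interval lay nearer 0 than the estimate for Gria2, 0.71 ± 0.16 (SE).

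Among the remaining GluN2 genes, Grin2d had a log2 fold change of 0.10 ± 0.19 (SE; -0.30 to 0.50), from 80.1 ± 22.7 and 86.0 ± 20.0 CPM. Grin2c had the largest estimate, 0.22 ± 0.22 (-0.24 to 0.68), from 8.58 ± 2.57 and 10.0 ± 2.72 CPM. In this scaling 4 of 7 eGFP-GluA2 libraries exceeded the highest eGFP library, and the share of all genes that did so was not counted. The excess depended on the scaling. In CPM without TMM only eGFP-GluA2 replicate 1 was above the highest eGFP library (16.8 against 15.2), and in TPM only replicate 6 (1.16 against 1.13). Of the GluN3 genes, Grin3a had -0.09 ± 0.13 (-0.35 to 0.18), from 18.0 ± 3.09 and 16.9 ± 2.75 CPM. Grin3b had 0.09 ± 0.64 (-1.26 to 1.44), from 2.04 ± 1.55 and 2.18 ± 1.43 CPM, the widest interval of the 7. In edgeR the adjusted p was 1.00 for each of the 7. The log2 fold change was above 0 for 6 of 7 members, with a median of 0.09, and for 45.5% of all tested genes, with a median of -0.02. Values of the groups overlapped for all 7 members, and over all genes 0.00381% had every eGFP-GluA2 library above every eGFP library and 0.0152% every one below. In CPM without TMM, where these shares were 0.0152 and 0.00762%, and in TPM, where both were 0.00762%, the groups overlapped for all 7 members as well.

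With the background classes as a block the intervals narrowed and 0 of 7 members passed in edgeR, where 0.0419% of genes were called. None passed with the background as a covariate (0.0343% of genes did), with the replicate number as a block (0.0267%) or on reads recovered from the authors' normalized table (0.0127%) either. The log2 fold change was then 0.03 ± 0.10 (SE; -0.18 to 0.24) for Grin1, -0.03 ± 0.11 (-0.26 to 0.20) for Grin2a and -0.08 ± 0.12 (-0.32 to 0.17) for Grin2b. Grin2c kept the estimate farthest from 0, 0.25 ± 0.14 (-0.03 to 0.53; unadjusted p = 0.0755, edgeR adjusted p = 0.981). In the same fit Gria2 differed by 0.67 ± 0.10 (edgeR adjusted p = 0.00107), while without the block its edgeR adjusted p was 1.00. The excitatory marker Slc17a7 averaged 30.7 ± 8.71 CPM with eGFP against 45.9 ± 14.7 with eGFP-GluA2. With the group alone its log2 fold change, 0.58, was the largest of the 11 excitatory markers, and 0 of them passed in edgeR. Of the 11, 9 were above 0, with a median of 0.19. Cux2, the most abundant, averaged 190 ± 39.8 and 197 ± 33.9 CPM. The mean log2 CPM of the 11 moved with the background, at 3.07 to 3.50 in high and 2.48 to 3.02 in low background libraries. With the mean of the excitatory markers as a covariate 0 of 7 members passed in edgeR (0.0152% of genes did), and the log2 fold changes moved to 0.42 for Grin1, 0.51 for Grin2a, 0.43 for Grin2b and -0.27 for Grin3a, each with an unadjusted p under 0.05, as had 43.4% of all genes. In the authors' deposited table the log2 fold changes of the 7 members lay between -0.09 (Grin3b) and 0.14 (Grin2c), with an adjusted p of 1.00 each, where 0.0187% of the genes were past 0.05, Gria2 among them with 0.85 (adjusted p = 4.63e-09).

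**Figure D3:**
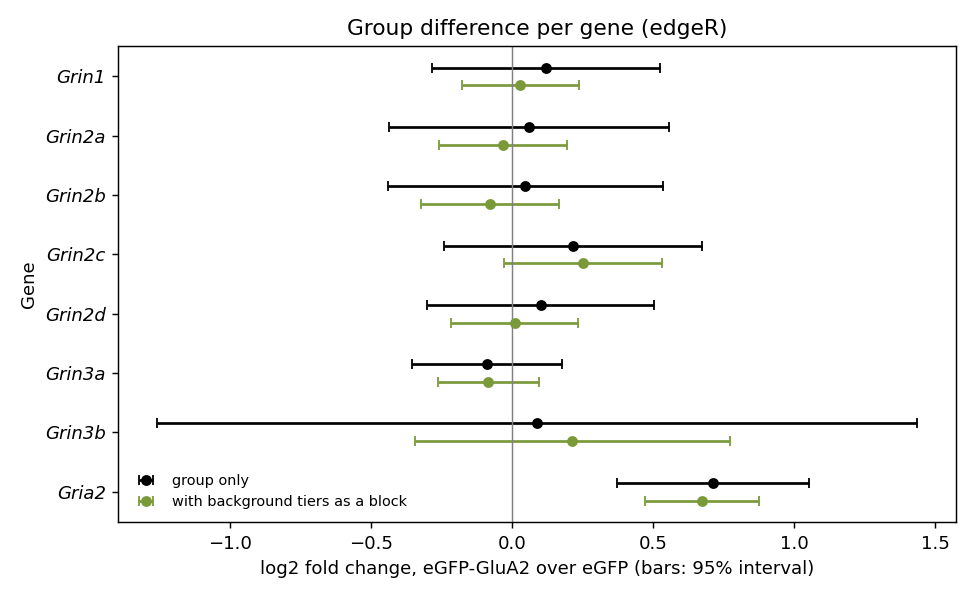
log2 fold change of eGFP-GluA2 over eGFP for the 7 subunit genes and Gria2, from edgeR with the group alone (black) and with background classes as a block (green), with 95% intervals. All subunit intervals include 0 in both fits, and those of Grin3b are the widest, from -1.26 to 1.44 with the group alone.

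Within background classes the differences were taken as mean log2 CPM, eGFP-GluA2 minus eGFP, in low, middle and high background libraries in turn. For Grin1 they were 0.15, -0.06 and 0.02, for Grin2a 0.03, -0.09 and 0.01, and for Grin2b 0.03, -0.10 and -0.14. Grin2d had 0.35, -0.33 and 0.03, and Grin2c had 0.54, -0.09 and 0.27. Grin3a had -0.08, 0.04 and -0.19, while Grin3b was above 0 in each class, with 0.48, 0.21 and 0.34. In the low class the Grin3b difference rested on eGFP replicate 8, with 0 counts and a log2 CPM of -2.42. There eGFP replicates 7 and 9, at 0.24 and -0.19, lay above eGFP-GluA2 replicates 6 and 7, at -0.28 and -0.34. The groups did not overlap for Grin1 in the low class, for Grin2a in the middle class, for Grin2d in both of these and for Grin2c and Grin3a in the high class. For Grin2d the 2 separations had opposite directions. Gria2 differed by 0.74, 0.75 and 0.54, with no overlap in any class. A class holds 2 to 4 libraries per group, so groups can separate by chance, and these are values with no test. The share of all genes without overlap inside a class was not counted, so the separations are no result about the members.

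Grin1, Grin2a, Grin2b and Grin2d were lower in high than in low background libraries, and Grin2c, Grin3a and Grin3b were higher. In TMM-scaled CPM, Grin1 averaged 295 ± 50.7 (SD, n = 6) in high and 487 ± 35.5 (SD, n = 5) in low background libraries. Grin2a averaged 476 ± 103 and 920 ± 35.9, Grin2b 771 ± 160 and 1383 ± 55.9, and Grin2d 62.1 ± 11.5 and 93.3 ± 15.3. In the other direction Grin2c averaged 10.8 ± 1.46 and 6.49 ± 1.83, Grin3a 19.8 ± 1.61 and 14.1 ± 1.57, and Grin3b 3.54 ± 1.06 and 0.586 ± 0.362. The classes did not overlap for Grin1, Grin2a and Grin2b, which were below, where 26.0% of all genes were below. They did not overlap for Grin3a and Grin3b, which were above, where 37.9% of all genes were above.

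Scaling moved these differences but not their direction. The median log2 ratio of high to low background over all genes was 0.17 in TMM-scaled CPM, 0.70 in CPM without TMM and 0.40 in TPM. The ratios of Grin1 were -0.72, -0.22 and -0.52 in these units, those of Grin2a -0.95, -0.46 and -0.41, and those of Grin2b -0.84, -0.35 and -0.50. Those of Grin2d were -0.59, -0.09 and -0.35, so all 4 lay below the median gene in every unit. Grin2c had 0.74, 1.27 and 0.46, Grin3a 0.49, 1.01 and 0.90, and Grin3b 2.59, 3.12 and 2.45, all above the median gene. In CPM without TMM the classes did not overlap for Grin2a and Grin2b (below, 9.61% of genes) and for Grin2c, Grin3a and Grin3b (above, 46.0%). In TPM only Grin3b did not overlap, above, where 30.2% of genes were above. The PV markers moved with the background too, with a summed 12044 to 12766 CPM in low and 4569 to 8465 CPM in high background libraries, in the direction of Grin1, Grin2a, Grin2b and Grin2d. Other sums fell as well. The excitatory markers summed to 290 to 350 CPM in low and 204 to 264 CPM in high background libraries. Cux2, with a mean of 193 CPM over all libraries, made up most of that sum. The mean log2 CPM of the 11 excitatory markers went the other way, at 2.48 to 3.02 in low and 3.07 to 3.50 in high background libraries. Markers of Vip, Lamp5 and Cck interneurons summed to 348 to 390 CPM in low and 190 to 293 CPM in high background libraries. Sums for Sst interneurons, astrocytes and oligodendrocytes overlapped between the classes, with lower medians in high background libraries. Markers of 3 other cell types moved in the direction of Grin2c, Grin3a and Grin3b. Those of oligodendrocyte precursors summed to 4.13 to 8.22 CPM in low and 28.8 to 37.0 CPM in high background libraries, those of microglia to 10.4 to 18.3 and 24.4 to 28.1 CPM, and those of endothelial and mural cells to 7.15 to 16.3 and 39.5 to 59.0 CPM. The part of these cell types in the subunit values was not tested.

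**Figure D4:**
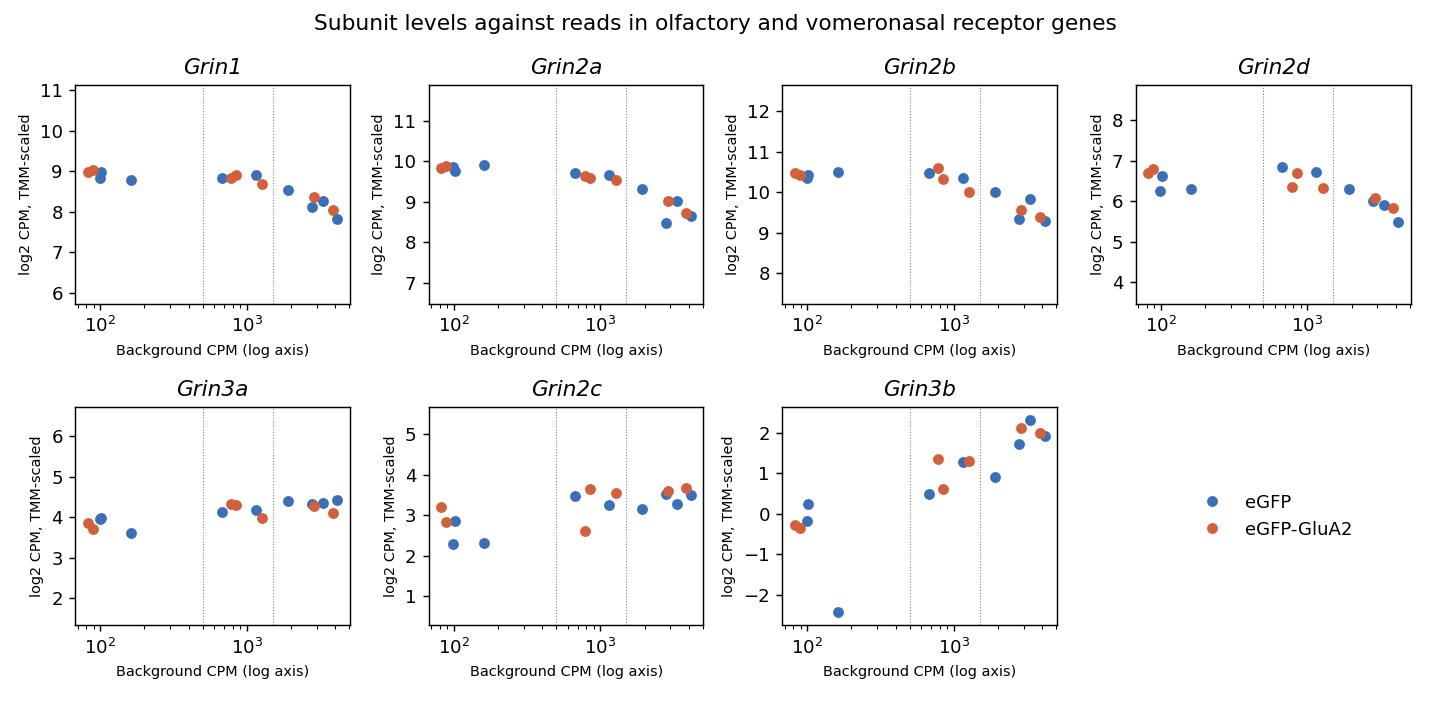
Level of each subunit gene as log2 CPM (TMM-scaled) against the CPM of olfactory and vomeronasal receptor genes (log axis), with 1 point per library and dotted lines at 500 and 1500 CPM. Grin1, Grin2a and Grin2b fall below their low background values in all 6 high background libraries, and Grin3a and Grin3b lie above theirs.

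The genes whose profile over the 16 libraries lay nearest to a subunit gene were found among 12404 protein-coding genes, by the root mean square distance of mean-centred log2 CPM. All libraries share the background gradient, so the distances describe it as well. Nearest to Grin1 were Man2a2 and Ptprs (distance 0.06 each, against a median of 0.27 over all genes) and to Grin2a Ubfd1 and Arl2bp (0.07 each). Nearest to Grin2d were Srcin1 and Dvl3 (0.11 each), to Grin3a Lmf1 (0.11) and Mettl27 (0.12), to Grin2c Pxn (0.20) and Pls1 (0.21) and to Grin3b Tspan11 (0.43) and Vipr1 (0.44). Between members, Grin2a and Grin2b were 0.13 apart, and Grin1 was 0.15 from Grin2b, 0.15 from Grin2d and 0.16 from Grin2a. Grin3b was at least 0.94 from every other member, while its median distance over all genes was 1.38. Distances grow with a gene's own spread, so they cannot be set beside each other between members. By rank, Grin2c was number 1180 among the genes nearest to Grin3b, and Grin2a number 1286 among those nearest to Grin1.

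Of 53 genes that scaffold, regulate, supply or act downstream of NMDA receptors, 0 passed in edgeR, against 0.00381% of all genes. Of the 53, 39 had a log2 fold change above 0, with a median of 0.05, against 45.5% of all genes, with a median of -0.02. The 17 scaffolding and trafficking genes had a median of 0.01 (11 above 0), the 12 kinases and phosphatases 0.06 (11 above 0), the 8 genes of downstream signalling 0.03 (5 above 0) and the 5 associated membrane proteins 0.12 (4 above 0). The 11 genes of co-agonist supply, which provide or clear glycine and D-serine, had a median of 0.10 (8 above 0) and held the 4 smallest p-values. Slc6a9, the glycine transporter GlyT1, had 20.4 ± 3.18 CPM (SD, n = 9) with eGFP against 26.4 ± 7.23 (SD, n = 7) with eGFP-GluA2, a log2 fold change of 0.37 ± 0.14 (SE; edgeR adjusted p = 1.00). Shmt2, the mitochondrial serine hydroxymethyltransferase, had 0.55 ± 0.24, and the serine synthesis enzymes Psat1 and Phgdh had 0.63 ± 0.34 and 0.85 ± 0.47, each with an edgeR adjusted p of 1.00. All 4 were highest in eGFP-GluA2 replicate 4, where Phgdh stood at 25.5 CPM against at most 6.62 in the other 15 libraries, Psat1 at 63.3 against at most 18.2, Shmt2 at 38.9 against at most 14.2 and Slc6a9 at 41.8 against at most 28.5. Without that library the log2 fold changes were 0.06 for Phgdh, -0.00 for Psat1, 0.15 for Shmt2 and 0.23 for Slc6a9.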

How the data were processed

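RNA of sorted, fixed PV interneurons was measured in 16 libraries grouped by genotype from the labels. Per the series' design text, the authors ran bcbio-nextgen 1.2.3, aligned reads with STAR (GRCm38), used Sailfish for quantification and compared groups with DESeq2. The deposited count table holds whole reads, not normalized; no source used here gives its counter or strand setting. The deposited TPM are scaled by the authors for transcript length. A further table by the authors holds signal values (counts over each library's size factor), log2 fold changes, a score (the test statistic) and p-values; 100% of its signal values were whole reads within 0.001, 10477517 to 17382059 per library.

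Of 54532 identifiers, 54495 were named from GENCODE M21 and related tables. Counts were tested with edgeR 4.0.16 (R 4.3.3): TMM, filterByExpr (26257 genes kept with 99.2% of counts), robust quasi-likelihood F test, Benjamini-Hochberg, threshold 0.05. Alternatives were DESeq2 1.42.0, limma 3.58.1 on log2(TPM + 0.5), recovered reads, other scalings and filters, covariates, blocks, and leaving out libraries. Two-sided exact permutation tests enumerated every allowed assignment of libraries to groups in Python 3.11.15. The edgeR test was tested on simulated data.

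The members, lists, background classes and tests were chosen with earlier results of these data known. Named were all 7 subunit genes, Gria2, Pvalb, partner genes past the threshold or else the 4 of smallest p, the 2 most abundant markers of a list, and the 2 nearest profiles per subunit gene. The nearest profiles of Grin2b are not reported here.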

Additional observations from a re-analysis of the deposited data

Results flagged for a closer look

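The share of Grin2b in the summed TPM of the 7 subunit genes was 32.6% in eGFP replicate 8, against 27.9% in the next highest of the 9 eGFP libraries. The gap took up 0.534 of the range of the group, above the limit of Dixon's test at 95% for 9 samples. It was the only such library among 44 sets of values checked, and chance alone gives about 1 in 20. From the deposited counts the ratio of Grin2a to Grin2b in that library was 0.657, within the eGFP range of 0.548 to 0.707. On reads recovered from the authors' normalized table that library had the lowest log2 ratio, -0.99, against -0.78 in eGFP replicate 1, the next lowest. The TPM ratios of these libraries were -0.32 and -0.11. Ratios from recovered reads kept nearly the same distance from the TPM ratios in every library, so they are no check apart from TPM.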

How the results depend on the processing

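Limits: 7 to 9 libraries a group leave the intervals given, Grin3b rests on few counts, and background was not balanced between groups. In every alternative 0 of 7 subunit genes passed the threshold. Pooled over the 7 genes, the adjusted p ran between 0.0872, reached by Grin2a, and 1.00. The number of all genes called by edgeR, 1, became 7 with the replicate block, 9 with the background covariate, 11 with background classes, 4 with the excitatory marker covariate, 3 on recovered reads, 9 with DESeq2, 2, 3 and 2 with limma on log2(TPM + 0.5), log2(TPM + 0.1) and log2(TPM + 1), and 3 in low and middle background libraries, a setting chosen after seeing the data, as was leaving out eGFP-GluA2 replicates 6 and 7. It was 1 without each library in turn. The log2 fold changes that turned sign, none of them past the threshold, were as follows, and the cause was not tested. With the replicate block Grin3b was -0.30 and Pvalb 0.34, with the background covariate Pvalb was 0.035, and with background classes Grin2a was -0.030 and Grin2b -0.077. With the excitatory marker covariate Grin2c was -0.14, Grin3b -0.84, Pvalb 0.72 and Ptk2b -0.062. On recovered reads Grin2b was -0.024, Grin3a 0.019 and Grin3b -0.41. On log2(TPM + 0.5), log2(TPM + 0.1) and log2(TPM + 1) Grin3a was 0.083, 0.11 and 0.062, Grin3b -0.12, -0.12 and -0.088, and Pvalb 0.14 each. With DESeq2 Psat1 was -0.0055. In low and middle background libraries Grin2a was -0.051, Grin2b -0.024 and Grin3a 0.068. Without eGFP-GluA2 replicates 6 and 7 Grin1 was -0.018, Grin2a -0.12, Grin2b -0.087, Grin2d -0.055 and Grin3a 0.021. Leaving out 1 library gave -0.024 to 0.16 for Grin2a, -0.029 to 0.15 for Grin2b, -0.15 to 0.35 for Grin3b, -0.12 to 0.12 for Pvalb and -0.0011 to 0.76 for Psat1. The deviations of same-numbered libraries correlated at over 0.1 in 6 of 7 pairs (-0.03 to 0.90 over all 7), and 2 of 7 libraries correlated best with their own number. Since a pair fell short and the labels tie the numbers to nothing shared, the numbers were not taken to pair the libraries. The log2 ratio of Grin2a to Grin2b differed by 0.06 in the replicate pairs (exact permutation p = 0.469) and by 0.08 to 0.18 without each library (exact permutation p 0.0933 to 0.376).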
